A study of Mus musculus with 3 samples.

Results

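A minority of the B16-F10 melanoma cells in these tumors carried transcripts of interferon-induced genes, and those cells are described here. A barcode was taken as a melanoma cell if it held at least 5000 UMIs (unique molecular identifiers, each standing for 1 captured transcript), at most 20% mitochondrial UMIs, at least 0.5% of its UMIs from the pigment genes Dct and Pmel, and no UMI of Cd3e, Cd3d, Ncr1, Csf1r or Col1a1. Interferon-responding cells were chosen by their own UMI counts, as melanoma cells with UMIs of at least 3 of 8 genes, which were Iigp1, Psmb8, Psmb9, Ifi47, Igtp, Gbp3, Gbp7 and Tap1. The rule found 1359 such cells among 16462 melanoma cells, or 8.26%, and the 3 libraries held 27374 barcodes in all. They are called responding cells below, and they were compared with the 11175 melanoma cells that had no UMI of any of the 8 genes. The other 3928 melanoma cells had UMIs of 1 or 2 of the genes.

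B16-F10 is a pigmented mouse melanoma line that grows in C57BL/6J mice, here 6 to 8 weeks old. The single-cell libraries came from tumors of cells carrying shCtrl, a control short hairpin RNA, in 1 library and shMib2, a hairpin directed at the ubiquitin ligase gene Mib2, in 2 libraries made with different hairpins. Each library pooled the tumors of 3 mice, so its single animals cannot be told apart, and all tumors went through enzymatic dissociation and red cell lysis. The study asked what lowering MIB2 does to the tumor and its immune cells. Mib2 RNA did not differ past the test between labels in the responding cells (log2 difference 0.04, adjusted p = 0.979), with 2.53 CPM under shCtrl, 3.06 for the first hairpin (shMib2 replicate 1) and 2.25 for the other (shMib2 replicate 2), or in the cells with none of the 8 genes, with 2.54, 3.16 and 2.69 (0.16, adjusted p = 0.7). CPM is the usual counts-per-million scale, the UMIs of a gene relative to all UMIs of the summed cells. Each direction given below is therefore one between library labels. Values for the 3 libraries follow this order throughout.

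Interferon gamma, made mostly by T and NK cells, binds the receptor IFNGR1 and IFNGR2 and acts through the kinases JAK1 and JAK2 on genes with gamma-activated sites (GAS) in their DNA, among them that of the transcription factor IRF1. Type I interferons bind another receptor and act on genes with interferon-stimulated response elements (ISRE). Both pathways raise peptide presentation by MHC class I, while the induction of MHC class II through CIITA is mainly a response to interferon gamma. In melanoma the same pathways raise PD-L1, the ligand encoded by Cd274.

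The 8 genes of the rule serve 2 tasks. Psmb8 and Psmb9 encode catalytic subunits of the immunoproteasome, and Tap1 encodes a subunit of the transporter that carries peptides to MHC class I. Iigp1, Ifi47 and Igtp encode immunity-related GTPases (IRG), and Gbp3 and Gbp7 encode guanylate-binding proteins (GBP). Because they chose the cells, their levels are a description and were not tested. Iigp1 stood at 61.5, 136 and 120 CPM in the responding cells. Igtp stood at 66.5, 122 and 116. Psmb8 stood at 31.1, 108 and 92.2. In these genes the library labelled shCtrl was the lowest, whereas Gbp3 lay close together in all libraries, at 22.9, 31.1 and 22.1. The responding cells were not uniform. The median number of UMIs of the 8 genes per cell was 7, 11 and 12, with quartiles of 4 and 13, 6 and 26, and 6 and 34.2. The 10 cells with the most such UMIs held 28.6%, 10.9% and 22.1% of them.

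The promoters of several of these genes hold the letters of the known elements. The windows were those of RefSeq on GRCm38.p6, from 250 bases before to 50 bases after each gene's start, read on both strands for GAAA, any 2 bases and GAAA as ISRE, and for TTC, any 3 bases and GAA as GAS. Only the first listed window of each gene was read, and 4163 genes had several. Of the 8 genes, 7 had a window, and 3 held an ISRE match and 3 a GAS match. The runs below are shown because they belong to genes that chose the cells or that the results below turn on. Each is written 5′ to 3′ in the direction of its gene, and capitals mark the matches.
Psmb8: ctccgctgTTCCCAGAAgatgcccc
Igtp: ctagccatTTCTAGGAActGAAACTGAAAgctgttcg
Gbp3: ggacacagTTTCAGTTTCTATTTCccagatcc
Gbp7: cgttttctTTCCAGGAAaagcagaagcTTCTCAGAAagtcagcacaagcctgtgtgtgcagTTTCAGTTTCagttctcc
Gbp2: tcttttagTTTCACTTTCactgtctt
Irf1: agcctgatTTCCCCGAAatgatgag
Isg15: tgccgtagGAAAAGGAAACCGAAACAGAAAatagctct
Ifit1: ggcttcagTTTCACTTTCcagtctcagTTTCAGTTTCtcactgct
B2m: aagaacatGAAACTGAAAatgggaaa
Cxcl10: acgctttgGAAAGTGAAActtacctc

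The run of Psmb8 lies at chr17:34198090-34198114 on the plus strand, that of Igtp at chr11:58199503-58199539 on the plus strand, that of Gbp3 at chr3:142559991-142560022 on the plus strand and that of Gbp7 at chr3:142530222-142530300 on the plus strand. The run of Gbp2 lies at chr3:142620596-142620621 on the plus strand, and that of Irf1 at chr11:53769916-53769940 on the plus strand. Isg15 is read from the minus strand at chr4:156200867-156200904, Ifit1 from the plus strand at chr19:34640777-34640821, B2m from the plus strand at chr2:122147540-122147565 and Cxcl10 from the minus strand at chr5:92349085-92349110. All of them lie before the start of the RefSeq window read, with the last printed base 17 bases before it in Igtp, 81 bases in Psmb8 and 196 bases in Cxcl10. The mm10 gene annotation starts Psmb8 at chr17:34197721 and Gbp2 at chr3:142620602. By that annotation the run of Psmb8 lies after the start, and the run of Gbp2 spans it. The windows of Psmb9, Ifi47 and Tap1 held neither element, which says only that these letters are not there.

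Among 168 genes with a window that were higher by at least 1 on the log2 scale in the responding cells (the comparison is given below, and the rule genes are not among them), 62 held an ISRE match, or 36.9%. The share was 3.93% of 712 genes that were higher by less and 2.74% of 1130 genes that were lower. It was 2.96% of all 10244 tested genes with a window and 3.49% of all 27025 windows read, 1 for each gene. For GAS the shares were 13.1%, 8.71%, 5.40%, 6.90% and 8.47%. All 7 windows found for the other GBP and IRG genes held an ISRE match, and so did 13 of 23 for the genes best known from type I interferon. None of 4 windows of MHC class II genes held either element. In 139 of all windows both elements were present, and in 21 of them the matches overlapped. These are letter matches and not measured binding.

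The share of responding cells differed widely between the labels. Under the shCtrl label 239 of 7937 melanoma cells met the rule, a share of 3.01% with a 95% Wilson interval from 2.66% to 3.41%. Replicate 1 of shMib2 had 644 of 5397 cells, a share of 11.9% (11.1% to 12.8%). Replicate 2 had 476 of 3128, which is 15.2% (14% to 16.5%). The ratio of shMib2 to shCtrl, averaged over the libraries, was 4.51 ± 0.771 (SD, n = 2 libraries labelled shMib2), from single ratios of 3.96 and 5.05. No test was run on 1 library against 2, where the smallest p of an exact permutation test is 0.333, and the intervals cover counting error only. Cells with more UMIs reach 3 genes more easily, and the median was 33643, 28614 and 48784 UMIs in the responding cells against 26182, 23768 and 41131 in cells with none of the 8. With every cell thinned to 5000 UMIs, the rule was met by 0.554%, 4.17% and 4.06% of the melanoma cells, a ratio of 7.42 ± 0.139. The exclusion genes had removed 1.79%, 17.5% and 20.2% of the cells that passed the other criteria, and with those cells kept the ratio was 4.95 ± 0.798.

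The number of genes detected had no gap at the threshold. The cells just outside it, with UMIs of 2 of the genes, numbered 252, 318 and 261, and the cells just inside it, with 3, numbered 101, 168 and 111. All 8 genes were detected in 11, 90 and 84 cells. At equal depth all 8 were found in 0 of 7937 cells of the library labelled shCtrl and in 9 and 5 cells of the others. Gbp2, which the rule did not use, was at 3.59, 5.01 and 2.48 CPM in cells with 2 of the genes and at 13.7, 11.9 and 4.81 in cells with 3. Single UMIs may also come from free RNA, which was not tested. Among erythroid barcodes, which should lack these genes, at least 1 of the 8 was found in 0.597%, 3.69% and 4.04%. Their median was 747, 922.5 and 1021 UMIs, and 0, 1 and 5 of them held at least 3 of the genes.

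**Figure D1:**
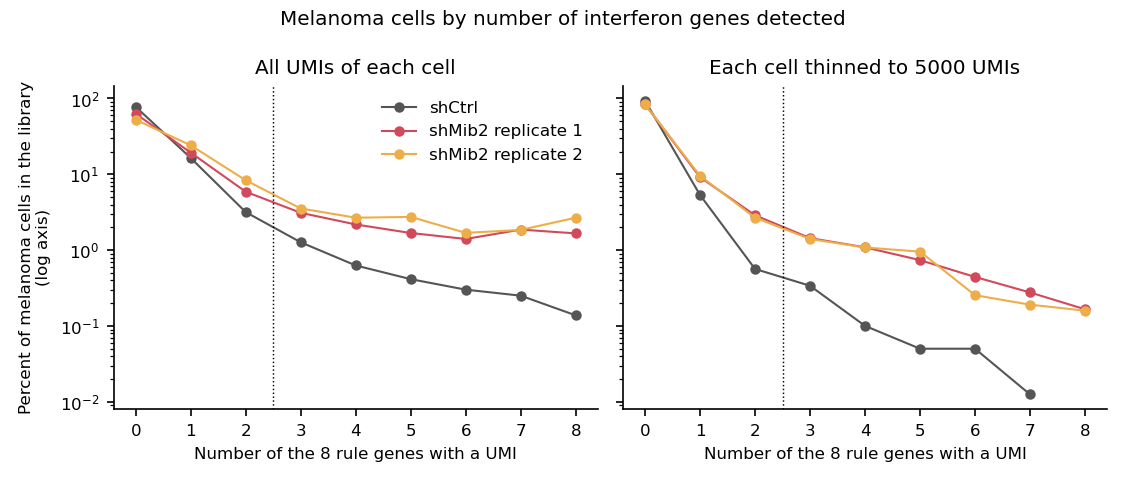
Percent of the melanoma cells of each library (log axis) against the number of the 8 rule genes with a UMI, with all UMIs (left) and with each cell thinned to 5000 UMIs (right); points are libraries and the dotted line marks the threshold. From 2 genes upward both libraries labelled shMib2 lie above the one labelled shCtrl in both panels, and no thinned shCtrl cell had all 8 genes.

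Pigment transcripts were present in the responding cells, which the rule had fixed in part by asking for Dct and Pmel. Dct, which was not tested, stood at 7420, 6949 and 8467 CPM against 8137, 7683 and 9306 in cells with none of the 8. Mlana, a melanosome protein, was detected in every cell and stood at 1975, 1978 and 1928 CPM against 1851, 1800.1 and 1799.6. Tyr, the first enzyme of melanin synthesis, was at 268, 335 and 289 against 321, 395 and 345, lower by 0.28 on the log2 scale. Of 13 genes of melanin synthesis and the melanocyte lineage, 2 were higher and 3 lower, with a median of -0.03. Over all genes in that test, which is given below, 8.18% were higher and 10.8% lower. Markers of other cells were low but not all equal. Of 5 tested T and NK cell markers 3 were higher, of 5 phagocyte and dendritic cell markers 3 were higher, and no tested B cell marker passed. Both counts of 3 lie far above the 8.18% of all genes that were higher. Ptprc, the pan-leukocyte CD45 gene, was at 0, 0.664 and 2.21 CPM against 0.0577, 0.536 and 0.415, and Gzma, a granule protease of killer cells, at 0.230, 2.14 and 3.58. For every 100 UMIs of Cd74 there were 0, 0.320 and 1.27 UMIs of Ptprc in the responding cells and 19.4, 3.85 and 3.91 in phagocyte or dendritic barcodes. Those barcodes numbered 7, 61 and 116 and were chosen by UMIs of Ptprc, Cd74 and Tyrobp. Each therefore held Ptprc by choice, and the 2 sets of ratios are a description only. Predicted doublets made up 16.3%, 13.2% and 15.5% of the responding cells and 6.07%, 4.63% and 4.15% of the cells with none of the 8. The part of doublets and of leukocyte RNA in the results below was not tested beyond leaving out predicted doublets and cells with UMIs of 7 further leukocyte and stromal markers.

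The responding cells of each library were then compared with the cells of the same library that had none of the 8 genes. UMI counts were summed per library and class and tested with edgeR's quasi-likelihood test with the library as a block and Benjamini-Hochberg adjustment over 13443 genes, and a call is an adjusted p below 0.05. Of these genes 1100, or 8.18%, were higher in the responding cells and 1448, or 10.8%, were lower. Most differences were small. Higher by at least 1 on the log2 scale were 223 genes, or 1.66%, and lower by at least 1 were 34, or 0.253%. The median over all genes was -0.01, with the 5th percentile at -0.41 and the 95th at 0.42. The rule genes, Dct, Pmel and the exclusion genes stayed out of the test.

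The sensor side of the pathway changed little, and the transcription factor genes Irf1 and Irf8 rose. Of 16 genes of the interferon gamma receptor, its signaling and its feedback, 10 were higher and 2 lower, with a median of 0.63. Irf1 was at 26.7, 37.6 and 43.3 CPM in the responding cells and at 2.29, 3.79 and 3.27 in the others, without overlap, a log2 fold change of 3.49 (SE 0.0748, adjusted p = 5.09e-19). Irf8, a related factor best known from myeloid cells, was 4.14 higher. Ifngr1 did not pass the test, at 13.2, 14.8 and 13.7 against 14.4, 14.9 and 15.3 (log2 fold change -0.13, adjusted p = 0.179). Ifngr2 was lower by 0.23 and Jak1 by 0.14 on that scale, and Jak1 passed under 8 of 17 alternative settings. None of 5 receptor genes of type I and III interferons passed, and none of 6 interferon genes had enough counts to be tested. Ifng itself, with 41, 565 and 1492 UMIs over all barcodes, was at 0, 0.204 and 0.362 CPM in the responding cells.

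The other GBP and IRG GTPases, which attack the vacuoles of intracellular microbes, were higher in the responding cells. Of the 14 listed, 1 had no row in the files and 2 had too few counts, and the 11 that were tested passed, with a median log2 fold change of 6.91. In the cells with none of the 8 genes alone 5 of the list passed the filter on low counts, so the tally and the median include genes that were tested because of their level in the responding cells. Gbp2 was at 56.3, 77.1 and 69.8 CPM against 0.312, 0.617 and 0.501, a log2 fold change of 7.17 (SE 0.0793, adjusted p = 1.44e-23). Gbp4 was at 18.8, 44.3 and 45.9 against 0.0404, 0.221 and 0.344. Irgm1, a regulator of the other IRG proteins, was at 51.2, 124 and 82.9 against 3.56, 5.45 and 3.94, a log2 fold change of 4.24. Members of this family share sequence, so that reads of near copies may be divided among them.

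Transcripts of MHC class I presentation were higher in the responding cells. Of 14 genes 12 were higher and 1 was lower, with a median of 2.12. B2m, the light chain of class I, was at 637, 915 and 844 CPM in the responding cells against 180, 220 and 195, a log2 fold change of 1.97 (SE 0.0372, adjusted p = 6.6e-20). H2-D1, a heavy chain, was at 265, 396 and 381 against 60.2, 74.2 and 67.1. Psmb10, the remaining catalytic subunit of the immunoproteasome, was 2.09 higher and Psme2, a subunit of the proteasome activator, 1.82 higher. The lower gene was Canx, which encodes the general chaperone calnexin, by 0.10. The 14 constitutive proteasome genes had a median of 0.06, and 6 of them passed, with Psmb2 at 0.19. Of 6 nonclassical class I genes 4 rose, among them H2-T23, the mouse counterpart of HLA-E and a ligand of an inhibitory NK receptor, by 2.13.

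MHC class II transcripts were higher in the responding cells. All 7 tested genes passed, with a median of 5.76, and their summed level was 122, 416 and 359 CPM against 13.5, 17.7 and 16.9. H2-DMb1, a chaperone chain of class II, made up most of the latter, at 11.3, 10.7 and 9.38 CPM. The filter on low counts used the sums of both classes. The tally and the median of this list therefore rest in part on levels in the responding cells. Cd74, the invariant chain, was at 49.7, 207 and 174 CPM against 0.681, 3.17 and 3.25, a log2 fold change of 5.92 (SE 0.0552, adjusted p = 9.95e-25). Erythroid barcodes held it at 102, 42.0 and 33.0 CPM, from 28, 27 and 29 UMIs, which under shCtrl is above the responding cells. The part of free RNA in these levels was not tested. H2-Aa was at 11.7, 56.1 and 53.2 against 0.104, 0.932 and 1.05. Ciita, the coactivator that class II genes depend on, was rare, with 5, 66 and 61 UMIs in the responding cells and 1, 0 and 3 in the far more numerous cells with none of the 8. With every cell thinned to 5000 UMIs, Cd74 was detected in 13.0%, 36.8% and 32.4% of the responding cells and in 0.244%, 1.47% and 1.77% of the others.

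Genes best known as targets of type I interferon rose as a whole. All 31 tested were higher, with a median of 3.2, and 2 more of the list had no row in the files. Isg15, a ubiquitin-like modifier, was at 235, 159 and 158 CPM against 12.6, 11.7 and 10.5, a log2 fold change of 3.95. Ifit3, which takes part in sensing foreign RNA, was at 83.6, 63.4 and 61.6 against 1.33, 1.11 and 1.32. Zbp1, a sensor of Z-form nucleic acids, was at 35.2, 44.7 and 44.7 against 0.167, 0.454 and 0.344, a log2 fold change of 7.08. In Isg15 and Ifit3 the library labelled shCtrl was the highest among the responding cells and in Zbp1 the lowest. Of 13 ubiquitin-like and metabolic targets 10 rose. Ube2l6, the conjugating enzyme for ISG15, was 2.78 higher, and the near copies Apol9a and Apol9b, whose reads may be exchanged, were 5.72 and 5.36 higher.

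Cd274 was low in level but higher in the responding cells, at 5.75, 9.80 and 11.8 CPM against 1.47, 2.24 and 1.43, a log2 fold change of 2.39 (SE 0.149, adjusted p = 9.1e-11), and it passed under all 17 alternative settings, within 1.67 to 3.39. It was 1 of 3 higher genes among 10 checkpoint and NK ligand genes. Lgals9, which encodes galectin 9, rose by 0.88 and Cd47, the signal that restrains phagocytes, by 0.27. Nectin2 and Tnfsf9 were lower by 0.27 and 0.20 on the log2 scale, Tnfsf9 with a call under 6 of 17 alternative settings. Of 11 genes that the study of MIB2 dealt with, Cd274 alone passed.

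Among T cell-attracting chemokines Cxcl10 was the most abundant, at 234, 209 and 198 CPM in the responding cells against 34.6, 35 and 28.1, a log2 fold change of 2.68. Cxcl9, another ligand of CXCR3, was at 8.28, 7.86 and 6.07 against 0.0635, 0.210 and 0.501. Ccl5 was at 17.4, 38.5 and 39.5 against 6.28, 6.19 and 7.33, but 10 cells held 90.7%, 71.5% and 80.0% of its UMIs in the responding cells. The 10 cells with the most Cxcl9 held 97.2%, 82.5% and 86.8%. Of 14 cell death and inflammasome genes 9 rose. Mlkl, the effector of necroptosis, was 0.85 higher, Casp4, the sensor of cytosolic lipopolysaccharide known in the mouse as caspase-11, 1.83 higher, and Tnfsf10, which encodes TRAIL, 5.34 higher from levels below 1 CPM.

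**Figure D2:**
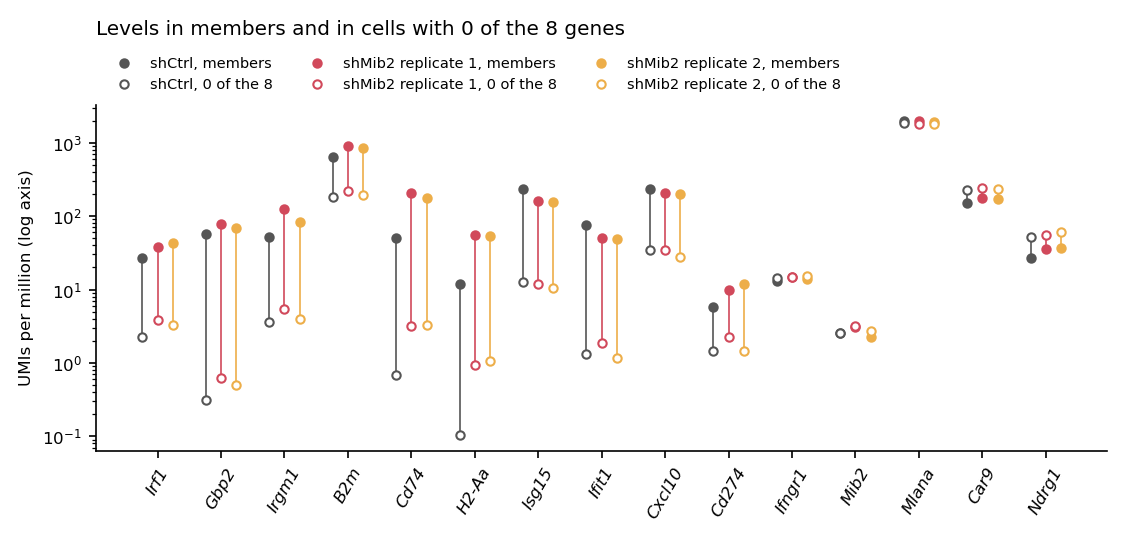
CPM (log axis) of 15 genes in responding cells (filled points) and in cells with none of the 8 genes (open points) of each library, joined by a line within the library. Irf1 through Cd274 are higher in the responding cells of all 3 libraries, Ifngr1, Mib2 and Mlana lie close together, and Car9 and Ndrg1 are lower in the responding cells.

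The genes that were lower included a whole list of hypoxia and glycolysis genes. All 13 tested were lower in the responding cells, with a median log2 fold change of -0.45, and within the single libraries the medians were -0.59, -0.30 and -0.43. Ndrg1, a hypoxia-induced gene, was at 27.0, 36.0 and 36.2 CPM against 51.2, 54.6 and 61.3, lower by 0.76 on the log2 scale (SE 0.0469, adjusted p = 6.93e-11). Car9, a carbonic anhydrase induced by HIF1, was at 149, 179 and 170 against 231, 239 and 235. Vegfa, the vascular growth factor, was at 62.2, 99.4 and 94.0 against 104, 141 and 127. In each of these genes no library of responding cells reached a library of the others. The sizes are far below those of the interferon genes. Ndrg1 and Car9 passed under all 17 alternative settings, within -1.02 to -0.54 and -0.93 to -0.33, and Vegfa under 16 of 17.

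Of 14 genes of stress and the unfolded protein response, 8 were lower and 2 higher. Asns, the asparagine synthetase induced by ATF4, was lower by 0.36 on the log2 scale, and Hspa1b, an inducible HSP70, by 0.61. The higher members were the immediate early genes Fos and Egr1, by 0.16 and 0.71. Among the lower genes with the largest folds in all 3 libraries were Ccn2, a target of YAP, by 0.94, Itga4, an integrin subunit, by 0.80, and Hmox1, heme oxygenase 1, by 0.65. Axl, a receptor kinase of dedifferentiated melanoma, was higher, at 8.51, 23.9 and 18.4 CPM against 4.19, 5 and 4.80. Nes, the intermediate filament nestin, was lower by 0.43. Prph, which encodes the filament peripherin, was at 34.3, 22.3 and 21.7 against 2.25, 2.59 and 2.68, a log2 fold change of 3.34.

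Proliferation genes were nearly level. Of 15 S phase genes 1 was higher, Cdt1 by 0.16, and of 15 mitosis genes 4 were higher and 1 was lower. Mki67 was at 134, 148 and 143 CPM against 156, 156 and 144. In tests of thinned cells, counts thinned to 5000 UMIs set the classes only, and the tested sums held all UMIs of the cells. That left 44, 225 and 127 responding cells and did not make depth equal. There the higher calls of Cdt1, Aurka and Birc5 were lost, with log2 fold changes of 0.028, -0.097 and 0.037. With cells of 20000 to 40000 UMIs alone, among which the responding cells were still the deeper, the values were -0.05, -0.09 and -0.10, and none passed.

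**Figure D3:**
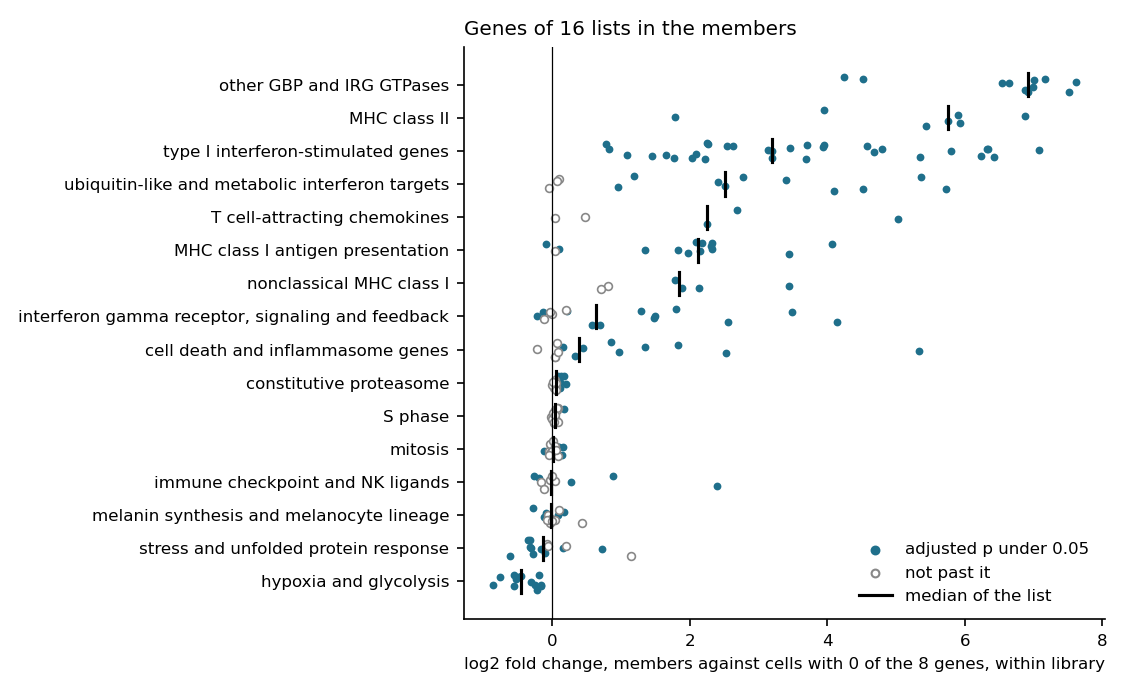
Log2 fold change of the genes of 16 lists between responding cells and cells with none of the 8 genes, within library; each point is a gene, filled where the adjusted p was under 0.05, and bars mark list medians. The list medians run from 6.91 for the other GBP and IRG GTPases to -0.45 for hypoxia and glycolysis, where all 13 genes were lower.

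Levels rose with the number of rule genes detected, though not at each step in each library. The sum of the other GBP and IRG genes went from 4.86, 8.01 and 6.17 CPM in cells with none of the 8 genes to 1103, 968 and 961 in cells with all 8. The sum of Isg15, Ifit1, Ifit3 and Rsad2 went from 24.4, 24.8 and 22.3 to 2457, 767 and 982, and that of Cd74, H2-Aa, H2-Ab1 and H2-Eb1 from 1.01, 5.71 and 6.23 to 353, 698 and 702. The order of the libraries differed between these sums, as the library labelled shCtrl was the highest in the former and the lowest in the latter among cells with all 8 genes. It rests there on 11 cells. The hypoxia and glycolysis sum stood at 7917, 7130 and 7739 in cells with none and at 5299, 5215 and 5733 in cells with all 8, whereas the sum of Tyr, Tyrp1 and Mlana stood between 4819 and 5707 at every step. The rule gene counts and these sums come from the same cells, so the steps are a description.

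**Figure D4:**
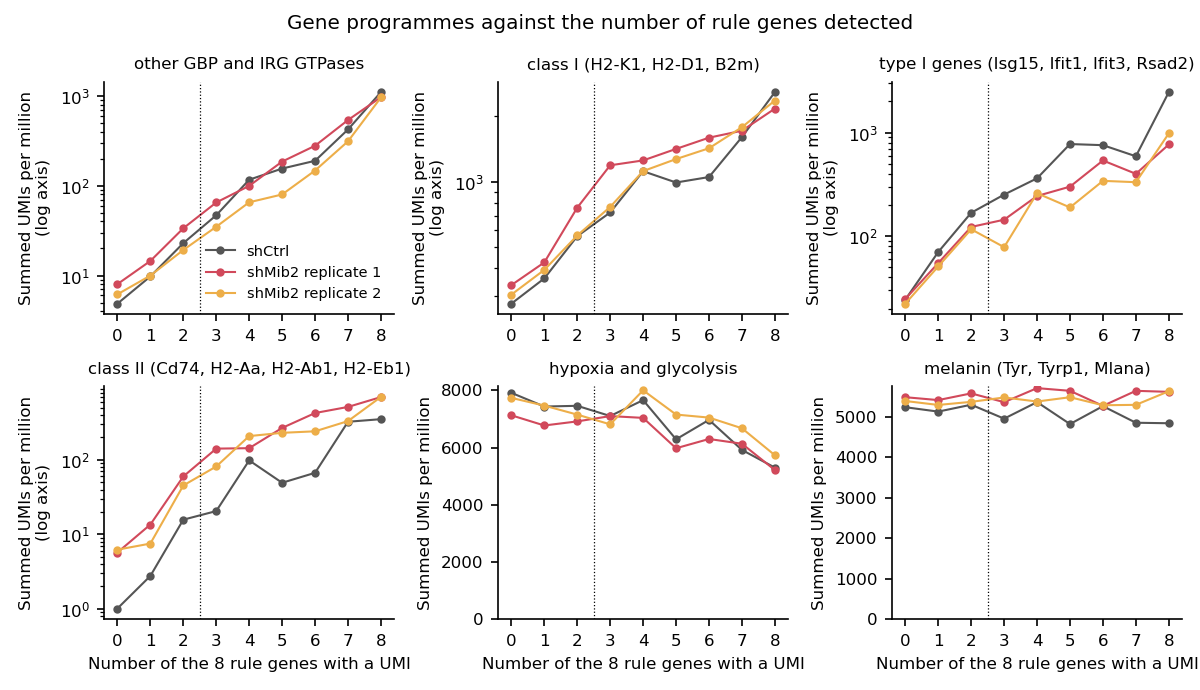
Summed CPM of 6 groups of genes against the number of the 8 rule genes with a UMI, by library; the vertical axes of the first 4 panels are log axes, those of the last 2 start at 0, and the dotted line marks the threshold. The interferon sums rise in all libraries, such as the other GBP and IRG genes from 4.86 to 1103 in the library labelled shCtrl, the hypoxia sum is lowest in cells with all 8 genes, and the melanin sum stays between 4819 and 5707.

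The responding cells of the shMib2 libraries were next compared with those of the shCtrl library. Of 12696 genes tested, 13, or 0.102%, were higher under the shMib2 label and 2, or 0.0158%, were lower. The fit has 1 residual degree of freedom, so the lone shCtrl library is taken to vary as much as the shMib2 libraries, which also differ by hairpin. Of MHC class II, 4 of 7 tested genes were higher, and the list median was 1.78, beside a median of 0.02 over all genes. H2-Aa was higher by 2.2 on the log2 scale (SE 0.0986, adjusted p = 0.00092), Cd74 by 1.92 (adjusted p = 0.00283), H2-Ab1 by 1.78 and H2-Eb1 by 1.40. Gbp4 (1.25) and Ccl5 (1.15) were also higher, but Ccl5 was at -0.31 with at least 2 of the 8 genes as the rule (adjusted p = 0.45), and in each library 10 cells held 90.7%, 71.5% and 80% of its UMIs in the responding cells. The other higher genes, named here because all calls are listed, were the collagen gene Col3a1 (5.28), Ifi204 (1.93), Ahnak (1.08), Fosb (0.89), Cited1 (0.70), the class I heavy chain H2-K1 (0.64) and Vegfa (0.62).

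Markers of other cells were also higher in value under the shMib2 label, at lower levels. All 7 tested T and NK cell markers had positive log2 differences, with a median of 6.30, and Ccl5 alone passed. All 6 tested phagocyte and dendritic cell markers were positive as well, with a median of 3.31 and none past the threshold, and so were all 6 stromal markers, with a median of 1.20, of which Col3a1 passed. These medians rest on genes at or near 0 under shCtrl, such as Trbc1, a T cell receptor constant gene, at 0, 0.613 and 0.643 CPM, and Ptprc. The summed levels in the responding cells were 17.8, 45.5 and 47.9 CPM for the T and NK list, most of it Ccl5, 8.86, 13.0 and 21.8 for the phagocyte and dendritic list and 5.06, 24.2 and 19.4 for the stromal list. With cells that held UMIs of the 7 further markers left out, H2-Aa was 2.05 higher (adjusted p = 6.34e-06), Cd74 1.69, H2-Ab1 1.63 and H2-Eb1 1.09, and each passed.

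The 2 lower genes were both type I targets. Ifit1 stood at 75.3, 50.5 and 48.7 CPM, lower by 0.62 on the log2 scale under the shMib2 label (adjusted p = 0.0376). Isg15 was lower by 0.58 (adjusted p = 0.0484). Under shCtrl 10 responding cells held most of the Ifit1 UMIs, and in the other libraries 10 cells held 38.2% and 48.1%. Ifit1 was detected in 33.5%, 29.2% and 30.7% of the responding cells, which lie closer together than its levels. For Isg15 the top 10 cells held 29.4%, 13.6% and 29.4%. The part of these few cells in the lower values was not tested. Over the 31 type I genes the median was -0.01, and the other 29 did not pass. With DESeq2's size factors in the same test the adjusted p was 0.0689 for Ifit1 and 0.094 for Isg15, so that neither passed. Cd274, at 5.75, 9.80 and 11.8, was 0.90 higher without passing (adjusted p = 0.273), and neither did Irf1 (0.59), Cxcl10 (-0.22) or Ciita (2.29).

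Responding cells of the library labelled shCtrl had fewer of the 8 genes each, so the comparison was repeated among cells with like numbers. Among cells with 3 to 5 genes H2-Aa was 2.37 higher and Cd74 1.75 higher under the shMib2 label, and among cells with 6 to 8 genes the values were 1.44 and 1.46, all past the threshold. Isg15 was lower by 0.92 and 0.86 on the log2 scale in these classes and Ifit1 by 1.31 and 0.68, again past it. Gbp4, by contrast, was at -0.08 in the former and at 0.59 in the latter, and passed in neither (adjusted p = 0.955 and 0.0552). Ccl5 was at 0.48 and 3.68. Thinned cells were again classed by their thinned counts, with all their UMIs summed. With thinned cells Cd74 alone was called (1.78, adjusted p = 0.0374), while H2-Aa was at 1.59 (adjusted p = 0.253).

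Counted per cell at 5000 UMIs, at least 1 UMI of Cd74, H2-Aa, H2-Ab1 or H2-Eb1 was found in 18% of the responding cells under shCtrl (13.6% to 23.4% by Wilson's method), in 44.3% of those in replicate 1 of shMib2 (40.5% to 48.1%) and in 39.3% of those in replicate 2 (35% to 43.7%). At least 1 UMI of Isg15, Ifit1, Ifit3 or Rsad2 was found in 46.0%, 49.2% and 45.8%. Cells with class II but no type I transcripts made up 6.69%, 20.03% and 19.96%, and cells with type I but no class II transcripts 34.7%, 25% and 26.5%. Both kinds were seen in 11.3%, 24.2% and 19.3%. The class II share was lowest under shCtrl, while the type I shares lay close together. The intervals cover counting error only, cells are not replicates of a label, and no test was run on these shares. In cells with none of the 8 genes the class II share was 0.407%, 2.59% and 3.48%, and the type I share 9.29%, 9.52% and 8.74%.

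**Figure D5:**
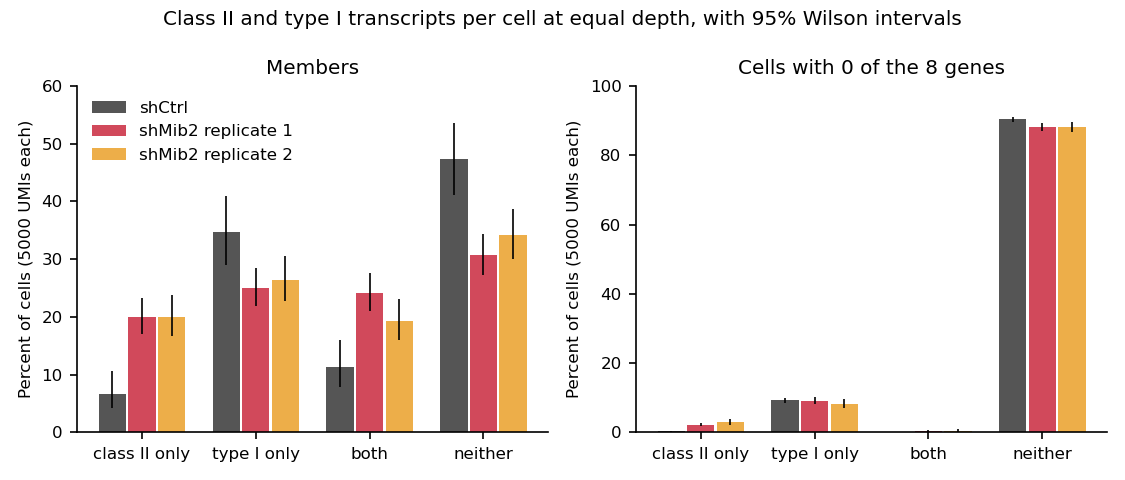
Percent of cells, each thinned to 5000 UMIs, with class II transcripts only, type I transcripts only, both or neither, in responding cells (left) and in cells with none of the 8 genes (right); bars are libraries, lines are 95% Wilson intervals, and the vertical scales differ. In the responding cells the class II only bar is 6.69% under shCtrl and 20.03% and 19.96% under shMib2.

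The cells with none of the 8 genes gave a background for the label comparison. Of 14546 genes tested, 7, or 0.0481%, were higher under the shMib2 label, and none, or 0.0%, was lower by edgeR's test, with 10 lower by DESeq2 and 1704 genes in both directions at an unadjusted p below 0.05. Cd74 was among the 7, at 0.681, 3.17 and 3.25 CPM and 2.19 higher (adjusted p = 0.046). With cells that held UMIs of the 7 further markers left out, no gene passed by edgeR's test, Cd74 included, and 926 had an unadjusted p below 0.05. The others, named because all calls are listed, were Col3a1, Mfap5 and Fbn1 of the extracellular matrix, Ly6a, Ccl2 and the hemoglobin gene Hbb-bt, which other cells of the tumor make. The label difference of Cd74 in the responding cells did not differ from it by the test of the interaction (-0.27, adjusted p = 0.637).

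The interaction of class and label was called for 118 genes, or 0.878%, with a larger value in the responding cells and for 32, or 0.238%, with a smaller one, out of 13443. H2-D1 and B2m had larger label differences in the responding cells, by 0.33 and 0.27 on the log2 scale, and Irgm1 by 0.63. Thinned cells were classed here by their thinned counts, with all their UMIs summed. None of the 3 passed in thinned cells, at 0.014, 0.047 and 0.21, and Irgm1 was at -0.14 among cells with 3 to 5 of the genes. H2-DMb1 was at 23.2, 46.8 and 37.0 CPM in the responding cells and at 11.3, 10.7 and 9.38 in the others, a difference of 1.03. Axl, with the values given above, differed by 1.09. Ifit1, Rsad2 and Isg15 had smaller label differences in the responding cells, by -0.83, -0.54 and -0.37. Car6, a secreted carbonic anhydrase, was at 249, 134 and 160 in the responding cells and at 153, 179 and 159 in the others, a difference of -0.88 (adjusted p = 5.84e-20), and without the library labelled shCtrl the responding cells were lower in Car6 than the others by 0.23 on the log2 scale. These 150 calls became 183 with DESeq2's size factors in edgeR and 157 with no filter on low counts. They became 0 by edgeR in thinned cells, where 731 genes had an unadjusted p below 0.05, 6 without cells that held UMIs of the 7 further markers and 20 by DESeq2.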

How the data were processed

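Tumors of B16-F10 cells were profiled in 3 single-cell libraries, 1 labelled shCtrl and 2 labelled shMib2, each a pool of 3 mice. The authors processed the reads with Cell Ranger 4.0.0 on mm10 and deposited raw UMI counts per gene and barcode, without normalization, for 9558, 9428 and 8388 barcodes with 243926188, 190904274 and 203298455 UMIs in all. The libraries shared 30, 25 and 20 barcode sequences pairwise, none of them of a responding cell in both. Coordinates of genes were those of the mm10 annotation and promoter sequences those of RefSeq.

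Counts were summed per library and class, since cells are not replicates, normalized by TMM, filtered by filterByExpr and tested with edgeR 4.0.16 at an adjusted p of 0.05. Pooled samples were the only replicates. With the library as a block, p-values of the class comparison rest on how the class difference varied between libraries. Those of the label comparisons rest on the spread between the libraries labelled shMib2, as shCtrl had a single library. For the interaction they rest on how the class difference varied between the libraries labelled shMib2. CPM values are raw sums over the UMIs of the class. Doublets were scored against simulated doublets, and 0.8% for every 1000 barcodes were called. Thinning drew 5000 UMIs per cell with seed 7. In the tests it set the classes only, and all UMIs of the cells were summed. Fold changes within single libraries were computed with 0.5 UMI added. Aldoa, whose symbol appears more than once, stayed out. The tests were tried on simulated data before use. Alternatives were DESeq2 1.42.0, its size factors in edgeR, no filter or a higher one, other thresholds of the rule, a window of depth, doublets or cells with further markers left out, and each library left out.

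The members and gene lists were chosen with earlier results of these data known. Named genes are the 8 rule genes, up to 4 genes of each list with the lowest p and any of opposite direction, Irf1, Ifngr1, Ifngr2, Cd274, Mib2, Ciita, Cd74, Cxcl10 and Ifng, up to 12 genes in each direction by fold within library at a mean of at least 10 CPM, and up to 6 by label and by interaction. Mitochondrial, ribosomal, Gm and Rik genes were left out, and 1 gene that the rule names is not reported here.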

Additional observations from a re-analysis of the deposited data

Results flagged for a closer look

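The following genes had a label difference in responding cells that differed from that in cells with none of the 8 genes by edgeR's test of the interaction. The values are log2 differences, larger in responding cells where positive. Groups of 1 and 2 libraries were too small to look for a library far from the others, and 1 of the 3 libraries carries each shCtrl value.

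Interferon targets and signaling genes gave 0.63 for Irgm1, 0.33 for H2-D1, 0.29 for Jak1, 0.27 for B2m, 1.03 for H2-DMb1, -1.36 for H2-Ab1, -0.37 for Isg15, -0.83 for Ifit1 and -0.54 for Rsad2. The chemokines gave 1.07 for Ccl5 and -2.65 for Cxcl9, and 10 cells held most of the UMIs of each. In H2-Ab1 and Cxcl9 the cells with none of the 8 genes had 0.110, 0.955 and 1.06 and 0.0635, 0.210 and 0.501 CPM, so the difference rests on low levels.

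Genes of the melanin, dedifferentiation and melanoma state lists gave 0.17 for Gpnmb, 0.12 for Tyrp1, 1.09 for Axl, 0.24 for Vim, 0.61 for Espn and -0.88 for Car6. Hypoxia genes gave 0.20 for Car9, 0.19 for Bnip3 and 0.28 for Vegfa. Stress and immediate early genes gave 0.75 for Hspa1b, -0.33 for Herpud1, 0.28 for Fos and 1.28 for Egr1. Birc5 of the mitosis list gave 0.16. Genes of none of the lists gave -0.50 for Tor3a, -0.86 for Prph, 1.1 for Otos, 1.03 for Pmp22, 0.91 for Mpp2 and 0.72 for Tnfrsf9.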

How the results depend on the processing

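No paired analysis was possible because the labels compared share fewer than 2 replicate numbers, with 1 library labelled shCtrl. In the gene tests below, thinned cells were classed by their thinned counts, with all their UMIs summed. The comparison of classes within library gave 2548 calls, and 702 with no library block, 1080 with DESeq2, 1014 with cells of 20000 to 40000 UMIs, 1084 with responding cells of 3 to 5 genes and 1587 with thinned cells. Leaving out a library in turn gave 1296 to 2899, the lowest without shMib2 replicate 2. Higher calls were 43.2% of all, 51.5% with DESeq2's size factors and 57.1% with no library block.

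The label comparison of responding cells gave 15 calls, and 7 with DESeq2's size factors in edgeR, 9 with at least 50 UMIs over the sums, 4 with the window of depth, 66 without cells holding the further markers, 169 among cells with 3 to 5 genes, 31 among cells with 6 to 8, 449 with no filter and 1 with thinned cells. In cells with none of the 8 genes the 7 calls became 47 with DESeq2, 2 with at least 50 UMIs, 1 with the window, 0 without further markers (926 at an unadjusted p below 0.05), 707 with no filter and 21 with thinned cells. The interaction gave 150 calls, and 20 with DESeq2, 30 with the window, 6 without further markers, 26 among cells with 6 to 8 genes, 98 without predicted doublets and 0 with thinned cells. The ratio of shares moved from 4.51 to 7.42 with thinned cells, 3.35 with at least 2 genes and 5.89 with at least 4. It was 5.05 without shMib2 replicate 1 and 3.96 without shMib2 replicate 2. Under the other settings it lay between 3.91 and 4.95.

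Directions turned for a few genes, in log2 units and with the cause not tested. In the comparison of classes these were Cdt1 (-0.050), Aurka (-0.092) and Birc5 (-0.096) with the window, Aurka (-0.097), Gzma (-0.83) and Nkg7 (-0.29) with thinned cells, Gzma (-0.40) and Nkg7 (-0.056) among cells with 6 to 8 genes, Hba-a1 (0.018 without shMib2 replicate 1, and as low as -0.75 without shMib2 replicate 2) and Car6 (-0.23 without shCtrl replicate 1, up to 0.30 without shMib2 replicate 1). Between labels they were Gbp4 (-0.083) among cells with 3 to 5 genes and Ccl5 (-0.31) with at least 2 genes, and in the interaction Irgm1 (-0.14) among cells with 3 to 5 genes.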
